A study of Homo sapiens with 12 samples.

Results

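Tissue factor, the cell surface trigger of blood clotting, was examined in ovarian cancer cells together with its inhibitors, the plasminogen activators and the receptors through which clotting and tissue proteases signal. The genes were a fixed list: F3 (tissue factor), TFPI and TFPI2 (tissue factor pathway inhibitors), THBD (thrombomodulin), PLAU (urokinase), PLAT (tissue plasminogen activator), PLAUR (the urokinase receptor), F2R (the thrombin receptor PAR1) and F2RL1 (the receptor PAR2). They were found by gene identifier, and all 9 were among the 19251 genes with values. All 9 also passed the filter on low values, a normalised read count of at least 10 in at least 3 libraries, but TFPI2 passed only through TOV21G, where it was abundant.

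RNA was sequenced from 12 cultures of the established ovarian cancer lines CAOV3, labelled as epithelial and high grade serous, and TOV21G, labelled as epithelial and clear cell, both of genotype WT. Each line was represented by 3 untreated controls and 3 cultures exposed for 16 h to 10% ovarian cancer ascites, the fluid that gathers in the abdomen of patients. All 12 cultures started from 250000 cells in 1.5 mL of DMEM with 10% fetal bovine serum and antibiotics, and 150 µL of ascites was added to the treated ones. The labels name no vehicle for the control wells and do not say how many patients or batches gave the ascites, and each histology was represented by a single line.

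Tissue factor binds factor VII in plasma and starts the extrinsic pathway, which ends in thrombin and fibrin. TFPI blocks the first steps of that pathway, and thrombomodulin turns thrombin from a clotting enzyme into an activator of protein C. Urokinase and tissue plasminogen activator convert plasminogen to plasmin, which dissolves fibrin and degrades matrix, and PLAUR holds urokinase at the cell surface. PAR1 and PAR2 are G protein-coupled receptors that are switched on by cleavage, PAR1 mainly by thrombin and PAR2 by trypsin-like proteases and by the complex of tissue factor with factor VIIa. Tissue factor on tumour cells is a known source of clotting risk in ovarian cancer, clear cell tumours in particular, and urokinase and its receptor are widely studied in invasion.

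The reads recovered over the 19251 genes with values numbered between 26697609 and 34491304 per library. Values are the authors' normalised read counts, given by library in the order of replicates 1, 2 and 3 or as mean ± SD (n = 3). Adjusted p-values are from limma with Benjamini-Hochberg adjustment over the 17616 genes tested, and a change was called at an adjusted p under 0.05. The labels do not say that replicates came from separate experiments, so the p-values measure only the spread between these libraries. The labelled histology was compared with marker genes. TOV21G controls carried PAX8, a marker of both histologies, at 7032. The clear cell marker NAPSA was below the minimum of 10 there, at 8.11 (24 reads), and at 3.51 in CAOV3 controls. In CAOV3 controls the serous markers PAX8, WT1 and MUC16 were low, at 19.1, 4.59 and 12.04, while WT1 stood at 228 in TOV21G controls. MUC16 was lower still in TOV21G controls, at 6.54, and SOX17, a further serous marker, was not analysed here. The levels of PAX8 and WT1 thus go against the labelled histology of CAOV3, and that of WT1 against the label of TOV21G. MUC16 was low in CAOV3, but its order between the lines was that of the labels. NAPSA, so close to the floor, does not bear out the label of TOV21G either, so the lines are called by name. In bulk RNA, fewer cells of a type and less RNA per cell cannot be told apart. Ascites can carry other cells: the 2 leukocyte markers with values, CD14 and LYZ, summed to 117 to 134 in CAOV3 controls against 100.6 to 125 with ascites, and to 8.39 to 13.01 against 11.6 to 20.4 in TOV21G. LYZ was at 0 in the TOV21G controls, and the other 5 leukocyte markers and the 3 haemoglobin genes were not analysed here. The 4 mesothelial markers with values summed to 62.39 to 76.21 in CAOV3 controls against 47.03 to 68.55 with ascites. In TOV21G they summed to 586 to 659 against 583 to 639, so the groups overlapped in both lines. The only platelet and endothelial markers with values, ITGA2B and PECAM1, also overlapped between control and ascites in each line. The 4 fibroblast markers with values summed to less with ascites in both lines (4217 to 4917 against 3812 to 4010.4 in CAOV3, 12548 to 13084 against 11259 to 11694 in TOV21G). Most of the sum was LUM in CAOV3 (means 4196 and 3647) and COL1A2 in TOV21G (10854 and 9661). COL1A2 was at 2.46 in CAOV3 controls and LUM at 0 in TOV21G controls, so the lines do not share the marker behind the sum. The means of PDGFRB in CAOV3 (21.3 and 22.5) and LUM in TOV21G (0 and 1.66) were not lower with ascites. The 5 epithelial markers summed to more in CAOV3 (131717 to 132806 against 153330.3 to 162634) and overlapped in TOV21G (11027 to 12423 against 10412 to 11982). In CAOV3 that sum was carried by KRT8 (means 66468 and 81372) and KRT18 (47679 and 59866), while the means of CDH1 (425 and 272) and KRT19 (16839 and 16198) were lower with ascites. The part of these shifts in the results was not tested.

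Without ascites, the lines differed in the 8 genes detected in both, and TFPI2 was detected only in TOV21G. THBD, PLAU, PLAT and F2R were higher in TOV21G, and F3, TFPI, PLAUR and F2RL1 were higher in CAOV3. The largest differences were those of TFPI2, which had no read in any CAOV3 library, and of PLAU and THBD, 19.1-fold and 12.4-fold apart in the fit. TFPI2 is left out of the counts here, because a gene that passed the filter only through its high line had to differ. All 8 other genes reached the minimum of 10 in at least 3 libraries of each line and were called, 4 higher and 4 lower in TOV21G. Of the 13908 genes with that minimum in both lines, 81.1% were called (41% higher and 40.1% lower), as were 82.2% of all genes tested, so a difference between the lines is the usual state of a gene here. In the 8 genes the control libraries of the lines did not overlap, as for 81.7% of those 13908. The median log2 difference of the 8 genes (TOV21G minus CAOV3) was -0.05, against -0.00351 over the same 13908 genes.

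**Figure D1:**
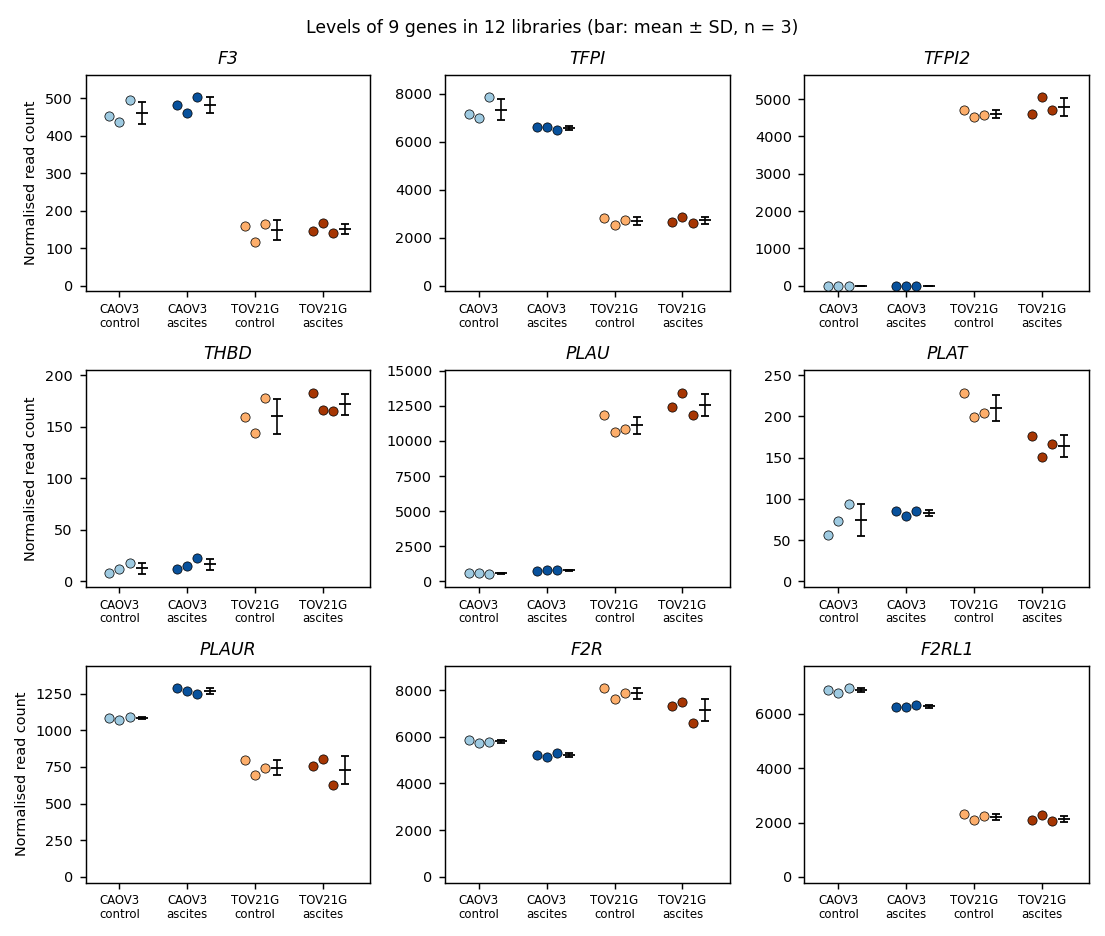
Normalised read counts (vertical axes, linear, each from 0 on its own scale) of the 9 genes in the 12 libraries, with 1 point per library and the mean ± SD (n = 3) beside each group. TFPI2 lies at 0 in the 6 CAOV3 libraries, PLAU lies between 10640.2 and 13431 in TOV21G and between 552 and 799.5 in CAOV3, and in every panel the gap between the lines exceeds the shift with ascites.

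F3, which encodes tissue factor, lies on chromosome 1 (GRCh38, 94529225 to 94541800, minus strand) and overlaps no other annotated gene. In CAOV3 controls it was at 453, 437 and 495, and in TOV21G controls at 160.4, 117 and 166. All CAOV3 libraries lay far above all TOV21G libraries. The log2 difference was -1.65 (SE 0.12, adjusted p = 1.53e-08), so TOV21G carried 0.319 times the tissue factor RNA of CAOV3.

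No change of tissue factor RNA with ascites passed the test in either line. F3 stood at 482, 460.1 and 503 in CAOV3 with ascites and at 147, 166 and 141 in TOV21G with ascites, and the groups overlapped in each line. The log2 fold change was 0.06 in CAOV3 (95% CI -0.20 to 0.32, adjusted p = 0.899) and 0.05 in TOV21G (95% CI -0.21 to 0.31, adjusted p = 0.935). These intervals leave room for a change of at most 0.32 on the log2 scale in either direction.

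The F3 promoter is shown because tissue factor is the trigger of the pathway and its RNA did not pass the test with ascites in either line. It is the 250 bases before the RefSeq start (GRCh38.p14, chr1:94541760-94542009, minus strand), printed 5′ to 3′ on the gene's strand, with AP-1 motifs (TGANTCA), GC boxes (GGGCGG) and a TATA box (TATAAA) in capitals. Both strands were searched, so that a match on the other strand reads CCGCCC or TTTATA.

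F3: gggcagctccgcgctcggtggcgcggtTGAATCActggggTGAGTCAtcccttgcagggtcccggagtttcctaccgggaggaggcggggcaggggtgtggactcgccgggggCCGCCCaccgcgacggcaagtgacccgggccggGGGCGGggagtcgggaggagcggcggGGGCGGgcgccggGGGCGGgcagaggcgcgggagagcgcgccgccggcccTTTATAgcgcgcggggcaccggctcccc

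The F3 window held 2 AP-1 matches, 223 to 217 and 210 to 204 bases upstream, 4 GC boxes and 1 TATA match 28 to 23 bases upstream. Of 35114 RefSeq promoters of this length, 6.57% held an AP-1 match, 42.6% a GC box and 10.7% a TATA match. With 34 CG dinucleotides it was also rich in CG, since only 6.84% of promoters had as many or more. No NF-kB consensus and no STAT motif (TTCNNNGAA) matched, which says only that these letters are not in this window.

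TFPI, the main inhibitor of the tissue factor complex, lies on chromosome 2 (187464230 to 187565760, minus strand) and overlaps 1 antisense RNA gene, so its counts could include or lose reads if strand was not used. The same holds for TFPI2, PLAU and F2R, which also overlap genes on the opposite strand. CAOV3 controls had 7161, 7013 and 7864, and TOV21G controls 2846, 2537 and 2728. CAOV3 was the higher line without overlap, by a log2 difference of -1.44 (TOV21G minus CAOV3, SE 0.05, adjusted p = 1.37e-11). With ascites CAOV3 gave 6631, 6607 and 6480.2. Each of those values lay below every control, but the log2 fold change of -0.16 (95% CI -0.28 to -0.04) did not pass the test (adjusted p = 0.207). TOV21G with ascites gave 2662, 2886 and 2630.0, inside the range of its controls for each but the highest (log2 fold change 0.01, adjusted p = 0.978). The difference in response between the lines was 0.17 (95% CI 0.00 to 0.34, adjusted p = 0.414).

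Tissue factor and its inhibitor were thus both higher in CAOV3, and so was their ratio, in which every CAOV3 library lay above every TOV21G library of the same treatment. Per kilobase of annotated exon, the F3 level was 0.258, 0.254 and 0.256 times that of TFPI in the CAOV3 controls and 0.230, 0.189 and 0.248 times in the TOV21G controls. With ascites it was 0.296, 0.284 and 0.316 in CAOV3 and 0.226, 0.235 and 0.219 in TOV21G. The 3 CAOV3 libraries with ascites lay above the 3 controls, while the TOV21G groups overlapped. These ratios were chosen after the values were seen and are given without a test. Here and below, the length is that of all annotated exons of a gene, not of the transcript expressed. The size of a ratio between genes depends on that choice.

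TFPI2, a related inhibitor that acts mainly on plasmin and other matrix proteases, was present in 1 line and undetected in the other. It lies on chromosome 7 (93885396 to 93890991, minus strand), with GNGT1 and an antisense RNA gene annotated on the opposite strand. All 6 CAOV3 libraries had 0 reads. TOV21G controls had 4716, 4509 and 4568, and TOV21G with ascites had 4609, 5050.3 and 4699.8. Against a floor of 3 reads summed over the 3 CAOV3 libraries of a group, TFPI2 was at least 4320-fold higher in the TOV21G controls (13743 reads) and at least 4570-fold higher with ascites (16524 reads). The floor covers counting error only. GNGT1 on the opposite strand ran the other way, at 35.1 ± 2.63 in CAOV3 controls and 0.649 ± 0.567 in TOV21G controls. Within TOV21G, TFPI2 with and without ascites overlapped (log2 fold change 0.06, 95% CI -0.20 to 0.31, adjusted p = 0.916).

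The TFPI2 promoter is shown because TFPI2 is the member that was abundant in 1 line and had no read in the other. The window is chr7:93890754-93891003 (GRCh38.p14, minus strand), 250 bases, with each CG dinucleotide in capitals.

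TFPI2: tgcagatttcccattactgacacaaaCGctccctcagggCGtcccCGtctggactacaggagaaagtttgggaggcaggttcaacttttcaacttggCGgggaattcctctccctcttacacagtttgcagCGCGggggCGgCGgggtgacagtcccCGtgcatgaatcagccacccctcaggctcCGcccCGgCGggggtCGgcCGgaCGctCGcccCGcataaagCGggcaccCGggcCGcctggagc

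It held 20 CG dinucleotides, and 32.4% of RefSeq promoters had as many or more. It also held 1 AP-1 match 87 to 81 bases upstream, 1 match to the NF-kB consensus (found in 9.96% of promoters) 152 to 143 bases upstream and 2 GC boxes. DNA methylation and factor binding were not measured in these libraries.

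THBD, thrombomodulin, is a gene on chromosome 20 (23045633 to 23049741, minus strand) with no overlapping gene. It was close to the minimum of 10 for testing in CAOV3 controls, at 7.94, 11.8 and 17.8, and clearly present in TOV21G controls, at 159, 144 and 178. The log2 difference on the scale with a pseudocount of 1 was 3.64 (SE 0.26, adjusted p = 1.53e-08). With ascites the values were 12.03, 15.3 and 22.5 in CAOV3 and 183, 166 and 166 in TOV21G, overlapping the controls in both lines. The interval in CAOV3 was wide at these counts (log2 fold change 0.40, 95% CI -0.17 to 0.97, adjusted p = 0.577), and changes of up to 0.97 lie inside it. With 1 library left out the log2 fold change ranged from 0.139 to 0.675. In TOV21G the log2 fold change was 0.10 (adjusted p = 0.941).

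PLAU, urokinase, was the member with the strongest contrast between the lines among those expressed in both, and the only member whose change with ascites passed the test. The gene lies on chromosome 10 (73909177 to 73917497, plus strand), and C10orf55 is annotated on the opposite strand. CAOV3 controls had 602, 588 and 552, and TOV21G controls 11813, 10640.2 and 10875. The difference was 4.26 on the log2 scale (SE 0.06, adjusted p = 7.16e-16), with every TOV21G library above every CAOV3 library.

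With ascites PLAU rose in CAOV3 to 747, 799.5 and 793. All 3 libraries lay above all 3 controls, and the fold change was 1.34 (log2 0.43, SE 0.06, 95% CI 0.31 to 0.55, adjusted p = 0.00128). It was the 1 call among the 9 genes in CAOV3, where 1.73% of all genes tested were called, 0.636% as higher and 1.1% as lower. TFPI2, with no read in CAOV3, could not be called there. Leaving out any 1 of the 12 libraries kept the call, with adjusted p between 0.000691 and 0.0107 and log2 fold changes between 0.389 and 0.456. In TOV21G, PLAU with ascites stood at 12429, 13431 and 11849, also above all 3 controls, by 0.18 on the log2 scale (95% CI 0.06 to 0.30), which did not pass the test (adjusted p = 0.327). The edgeR quasi-likelihood test on the recovered reads did call it there (log2 fold change 0.20, adjusted p = 0.0417). The response was smaller in TOV21G by 0.25 (95% CI 0.08 to 0.42 below CAOV3), and this difference between the lines did not pass the test (adjusted p = 0.258).

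Because strandedness is not given in the sources used here, reads from PLAU and C10orf55 may not be told apart where they overlap. C10orf55 stood at 7.87 ± 2.05 in CAOV3 controls and 11.9 ± 3.26 with ascites, and at 34.2 ± 5.75 and 54.7 ± 13.5 in TOV21G, far below the PLAU level in the same libraries. Its part in the PLAU result was not tested.

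**Figure D2:**
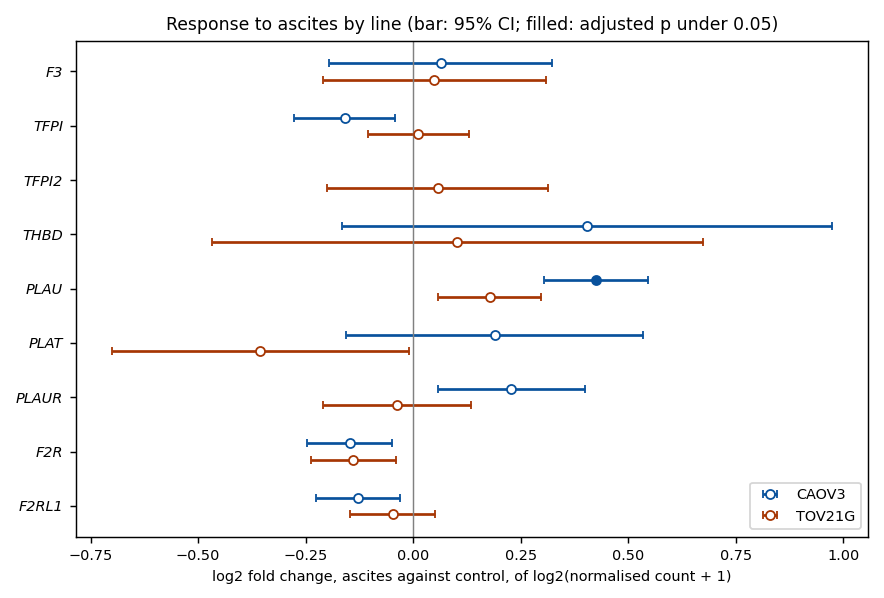
Log2 fold change with ascites against control (horizontal axis, log2 of normalised count + 1) for each of the 9 genes in CAOV3 (blue) and TOV21G (brown), with 95% confidence intervals and filled points for an adjusted p under 0.05. PLAU in CAOV3 at 0.43 is the only filled point, F2R lies to the left of 0 by a like amount in both lines, and TFPI2 has no CAOV3 point because it had no reads there.

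PLAUR, the receptor that holds urokinase at the membrane, lies on chromosome 19 (43646095 to 43670547, minus strand) and overlaps a small RNA pseudogene on its own strand, where strand does not tell their reads apart. CAOV3 controls had 1086, 1072 and 1091, and TOV21G controls 798, 693 and 745. Here the order of the lines was opposite to that of its ligand, with TOV21G lower by a log2 difference of -0.54 (SE 0.08, adjusted p = 2.34e-05). In CAOV3 with ascites PLAUR stood at 1286, 1269.9 and 1249, well apart from the controls and tight within each group. Its log2 fold change of 0.23 (95% CI 0.06 to 0.40) did not pass the test in the fit of all 12 libraries (adjusted p = 0.215). That fit takes 1 spread over both lines, and the SD of PLAUR was 9.48 and 18.7 in the CAOV3 groups and 52.4 and 94.4 in the TOV21G groups. In TOV21G with ascites the values 757, 806 and 624 spanned the controls (log2 fold change -0.04, adjusted p = 0.916). The difference between the responses was -0.27 (95% CI -0.51 to -0.02, adjusted p = 0.393).

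The promoters of PLAU and PLAUR are shown because ligand and receptor were the pair of members that stood higher together in CAOV3 with ascites. For PLAU the window is chr10:73910882-73911131 (plus strand) and for PLAUR chr19:43670170-43670419 (minus strand), both GRCh38.p14, with GC boxes and AP-1 motifs in capitals.

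PLAU: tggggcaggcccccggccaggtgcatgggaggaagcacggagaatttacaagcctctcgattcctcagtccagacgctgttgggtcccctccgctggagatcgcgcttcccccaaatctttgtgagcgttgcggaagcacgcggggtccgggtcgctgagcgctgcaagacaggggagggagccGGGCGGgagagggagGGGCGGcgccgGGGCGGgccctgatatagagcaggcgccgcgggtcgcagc

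PLAUR: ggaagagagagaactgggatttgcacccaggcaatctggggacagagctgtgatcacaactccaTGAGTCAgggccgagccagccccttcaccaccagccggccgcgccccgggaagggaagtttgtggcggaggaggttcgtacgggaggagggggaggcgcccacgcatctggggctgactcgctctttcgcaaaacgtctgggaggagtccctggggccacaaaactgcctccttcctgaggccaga

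The PLAU window held 3 GC boxes, 66 to 35 bases upstream, and 24 CG dinucleotides, with no match to AP-1, NF-kB, STAT or TATA motifs. RefSeq lists a second PLAU start (window chr10:73910360-73910609) with 4 CG dinucleotides and none of the motifs. The PLAUR window held 1 AP-1 match 186 to 180 bases upstream and 13 CG dinucleotides. As many or more CG dinucleotides were found in 23.7% of RefSeq promoters for the PLAU window and in 46.6% for the PLAUR window. The motif kinds found in the 2 windows thus did not coincide. This says only which letters are in these 250 bases, and sequence outside them was not searched.

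PLAT, tissue plasminogen activator, on chromosome 8 (42175233 to 42207724, minus strand), was the minor activator in both lines. CAOV3 controls had 55.6, 73.1 and 94.0, and TOV21G controls 229, 199 and 204. It was higher in TOV21G by 1.52 on the log2 scale (SE 0.16, adjusted p = 8.31e-07). In TOV21G with ascites it stood at 176, 150.4 and 166, each below every control, but the log2 fold change of -0.36 (95% CI -0.70 to -0.01) did not pass the test (adjusted p = 0.529). In CAOV3 with ascites the values 85.3, 78.7 and 84.9 lay within the wide range of the controls (log2 fold change 0.19, adjusted p = 0.679). The difference between the lines in response was -0.54 (95% CI -1.03 to -0.06, adjusted p = 0.387).

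Urokinase was therefore the more abundant activator in each library. Per kilobase of exon, PLAU exceeded PLAT 24.3-, 18.0- and 13.2-fold in CAOV3 controls and 116-, 120- and 120-fold in TOV21G controls. With ascites the ratio was 19.6, 22.8 and 20.9 in CAOV3 and 158, 200 and 160 in TOV21G. The TOV21G libraries with ascites all lay above their controls, and the CAOV3 groups overlapped. The ratio of PLAU to its receptor per kilobase was 0.837, 0.829 and 0.765 in CAOV3 controls against 22.4, 23.2 and 22.1 in TOV21G controls. On this measure TOV21G had far more ligand than receptor RNA and CAOV3 less. By counts, PLAU stood at 581 and PLAUR at 1083 in CAOV3 controls, so how much less depends on the lengths used (2950 and 4457 bases). With ascites the ratio per kilobase was 0.877, 0.951 and 0.959 in CAOV3 and 24.8, 25.2 and 28.7 in TOV21G, above all controls of the same line in both. These ratios, too, were chosen after the values were seen and have no test.

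F2R, the gene of PAR1, and F2RL1, the gene of PAR2, lie 83151 bases apart on chromosome 5 (76716043 to 76735781 and 76818933 to 76835315, both plus strand), and F2R overlaps an antisense RNA gene. F2R stood at 5881, 5722 and 5788 in CAOV3 controls and at 8078, 7626 and 7859 in TOV21G controls. TOV21G was higher without overlap, by 0.44 on the log2 scale (SE 0.05, adjusted p = 7.79e-07). F2RL1 showed the opposite order, at 6869.6, 6791 and 6948 in CAOV3 controls against 2302, 2089 and 2245 in TOV21G controls. Its log2 difference was -1.64 (SE 0.05, adjusted p = 6.24e-13). Per kilobase of exon, PAR2 RNA at 2322 ± 26.5 exceeded PAR1 RNA at 1426 ± 19.6 in CAOV3 controls, and PAR1 at 1932 ± 55.5 exceeded PAR2 at 748 ± 37.2 in TOV21G controls.

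With ascites F2R was lower in all 6 libraries than in any control of the same line. It stood at 5239, 5146 and 5314 in CAOV3 and at 7337, 7472 and 6604 in TOV21G. The log2 fold changes were -0.15 in CAOV3 (95% CI -0.25 to -0.05, adjusted p = 0.163) and -0.14 in TOV21G (95% CI -0.24 to -0.04, adjusted p = 0.369). Neither passed the test, and the difference between the lines was 0.01 (95% CI -0.13 to 0.15). With TMM scaling in place of the authors' scaling, limma did call F2R in CAOV3 (log2 fold change -0.15, adjusted p = 0.0441).

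F2RL1 with ascites stood at 6241, 6267 and 6342 in CAOV3, again apart from the controls, by a log2 fold change of -0.13 (95% CI -0.23 to -0.03) that did not pass the test (adjusted p = 0.223). In TOV21G it stood at 2099.6, 2275 and 2047, overlapping the controls (log2 fold change -0.05, adjusted p = 0.757). The intervals for both receptors bound any decrease in either line to 0.25 on the log2 scale.

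Across the 9 genes, the response to ascites was small beside the difference between the lines, as it was for genes in general. Over all genes tested, the median size of the log2 change was 0.0917 with ascites in CAOV3 and 0.0844 in TOV21G. Between the untreated lines it was 0.812. In CAOV3, 5 of 9 genes had groups that did not overlap (PLAU and PLAUR higher, TFPI, F2R and F2RL1 lower), where 24.2% of all genes tested did not overlap (11.4% higher, 12.8% lower), and the same 5 had an unadjusted p under 0.05, as did 2280 of the 17616 genes. In TOV21G none of the 9 was called, where 0.409% of genes were called, and 3 of 9 (PLAU higher, PLAT and F2R lower) did not overlap, against 11.1% of genes (4.16% higher, 6.99% lower). Those 3 had an unadjusted p under 0.05 by limma, as did 1615 of all genes, and edgeR called 1 of the 9. The median log2 fold change of the 9 genes was 0.06 in CAOV3 and 0.01 in TOV21G, against -0.00207 and -0.02 over all genes tested. The CAOV3 counts and median include TFPI2, whose change there was fixed at 0 because it had no read. No member was called for a different response in the lines, where 0.545% of genes were called, although 4 of 9 (TFPI, PLAU, PLAUR and PLAT) had an unadjusted p under 0.05 by limma, as did 2091 of all genes.

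The number of member calls in CAOV3 differed between fits. When only the 6 CAOV3 libraries were fitted, 5 of the 9 genes were called: PLAU (adjusted p = 2.96e-05), PLAUR (adjusted p = 0.00185), F2R (adjusted p = 0.00514), TFPI (adjusted p = 0.00916) and F2RL1 (adjusted p = 0.0113). In that fit 1295 of 15808 genes tested were called, against 305 in the fit of all 12 libraries. TFPI2 did not pass the filter there. The spread within TOV21G followed 1 axis that held 50.5% of its within-group variance. On it control 1 and ascites 2 lay at -13.9 and -12.6 and the other 4 libraries between 1.83 and 12. TFPI, TFPI2, PLAU, PLAUR, F2R and F2RL1 were highest in control 1 among the controls and in ascites 2 among the treated libraries, that is 6 of 9, as were 33% of all genes tested. The part of this axis in the TOV21G results was not tested.

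PLAU was compared with every other tested gene over the 12 libraries, as log2 values centred within each line. The 3 most alike were SBNO2 (Pearson r = 0.947), ICAM1 (r = 0.945) and FOSL1 (r = 0.944). The 12 points share treatment groups and library scaling, so these values describe likeness in this set only.

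Beyond the 9 genes, 62 further genes of the clotting, anticoagulant, plasminogen and protease receptor systems were listed, of which 45 had values and were tested and 17 were not analysed here, among them PLG (plasminogen), SERPINB2, SERPINC1 and VWF. In CAOV3, 1 of the 45 was called higher with ascites, 2 were called lower and 42 did not pass, where 1.73% of all genes tested were called. None of the 45 was called in TOV21G, where 0.409% were. The median log2 fold change of the 45 was 0.02 in CAOV3 and -0.07 in TOV21G. By group, 0 of 14 clotting factors and cofactors were called in either line (medians 0.03 and 0.01), and 0 of 10 genes of the plasminogen system (medians 0.06 and -0.08). Of 8 anticoagulants 1 rose and 1 fell in CAOV3 (median 0.05) and none was called in TOV21G (median -0.13), and of 13 receptors, membrane proteases and their partners 1 fell in CAOV3 (median -0.06) and none was called in TOV21G (median -0.03).

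**Figure D3:**
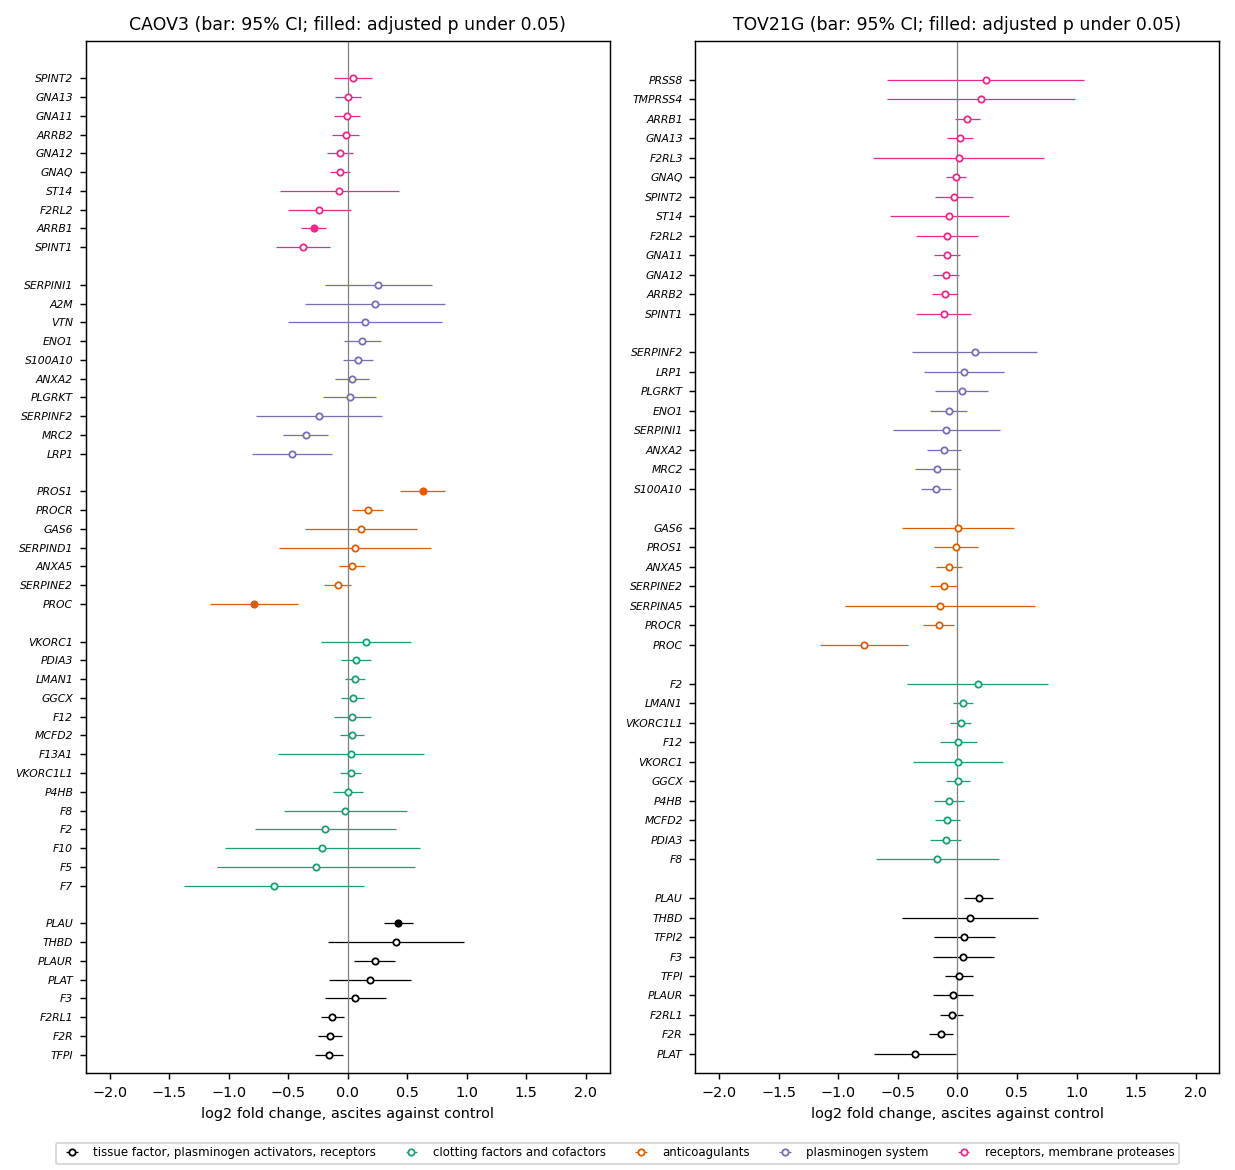
Log2 fold change with ascites (horizontal axes) of the 9 genes and the 45 further genes by list in CAOV3 (left) and TOV21G (right), with 95% confidence intervals and filled points for an adjusted p under 0.05. Genes with at most 3 reads over a group of that line are not drawn (5 in CAOV3, 7 in TOV21G). PLAU, PROS1, PROC and ARRB1 are filled on the left, and no point is filled on the right.

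The anticoagulant that rose was PROS1, protein S, the cofactor of activated protein C and of TFPI. In CAOV3 it went from 251, 234 and 258 to 393, 332 and 434, without overlap (log2 fold change 0.63, SE 0.09, adjusted p = 0.00187). In TOV21G it was at 1169.6, 1032 and 1070.4 in controls and 1051, 1137 and 1054 with ascites, overlapping (log2 fold change -0.01, adjusted p = 0.998). PROC, protein C, fell in CAOV3 from 125, 132 and 139.6 to 68.9, 82.8 and 77.8 (log2 fold change -0.78, adjusted p = 0.036). That call ended without any 1 of the 6 CAOV3 libraries or without TOV21G control replicate 3, with an adjusted p of up to 0.138 (without CAOV3 ascites replicate 1). In TOV21G PROC stood at 55.3 ± 3.89 in controls and 32.3 ± 7.24 with ascites, a log2 fold change of -0.78 that did not pass the test (adjusted p = 0.0911).

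ARRB1, beta-arrestin 1, which couples PAR2 to internalisation and signalling, fell in CAOV3 from 2750.2 ± 69.8 to 2258 ± 57.2 (log2 fold change -0.28, adjusted p = 0.00846). Without CAOV3 ascites replicate 2 its adjusted p was 0.0523.

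Between the untreated lines, 34 of the 45 further genes reached the minimum in both. Of these 34, 15 were called higher in TOV21G, 13 lower and 6 did not pass, where 81.1% of genes with the minimum in both lines were called (41% higher, 40.1% lower). Of 10 clotting factors and cofactors 4 were lower in TOV21G and 4 higher (median log2 difference -0.03), and of 8 plasminogen genes 4 were lower and 3 higher (median -0.32). Of 6 anticoagulants 3 were higher and 3 lower (median 0.51), and among 10 receptors and membrane proteases 5 were higher in TOV21G and 2 lower (median 0.31). The 3 higher genes of the anticoagulant list include GAS6, a relative of protein S, and the sign of that median rests on its inclusion.

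Several of the listed genes were nearly confined to 1 line. Those that passed the filter only through their high line had to differ. F5, factor V, had 10207 reads over the CAOV3 controls and 1 read over the TOV21G controls, a ratio of 10800 (95% counting interval 1940 to 427000). F13A1, the A chain of factor XIII, had 171 reads and 1 read, and A2M, alpha-2-macroglobulin, was at least 61.5-fold higher in CAOV3, since TOV21G controls had no read. VTN, vitronectin, an adhesive plasma and matrix protein that binds the urokinase receptor, was at 122 in CAOV3 controls and 1.96 in TOV21G controls (6 reads in all). On the other side stood MRC2, a collagen receptor that associates with the urokinase receptor, at 169.7 in CAOV3 and 23757 in TOV21G (log2 difference 7.13, adjusted p = 3.89e-16). GAS6, a relative of protein S, stood at 13.6 and 1475 (log2 difference 6.69, adjusted p = 2.91e-12).

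The further receptors of the PAR family were higher in TOV21G. F2RL3, the gene of PAR4, had no read in CAOV3 controls and was at least 76.1-fold higher in TOV21G. F2RL2, the gene of PAR3, which lies 92608 bases from F2R on chromosome 5 and was named after its values were seen, stood at 64.8 ± 7.77 in CAOV3 and 1220.5 ± 30.5 in TOV21G (log2 difference 4.22, adjusted p = 8.62e-13). TMPRSS4, a membrane serine protease, had 2 reads over the CAOV3 controls and 166 over the TOV21G controls, a ratio of 78.3 (95% counting interval 21.3 to 652). F2RL3 and TMPRSS4 passed the filter only through TOV21G, so they had to differ. Of the PAR genes with the minimum in both lines, F2R and F2RL2 were higher in TOV21G and F2RL1 in CAOV3. Over all genes with that minimum, 41% were called higher in TOV21G and 40.1% lower.

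**Figure D4:**
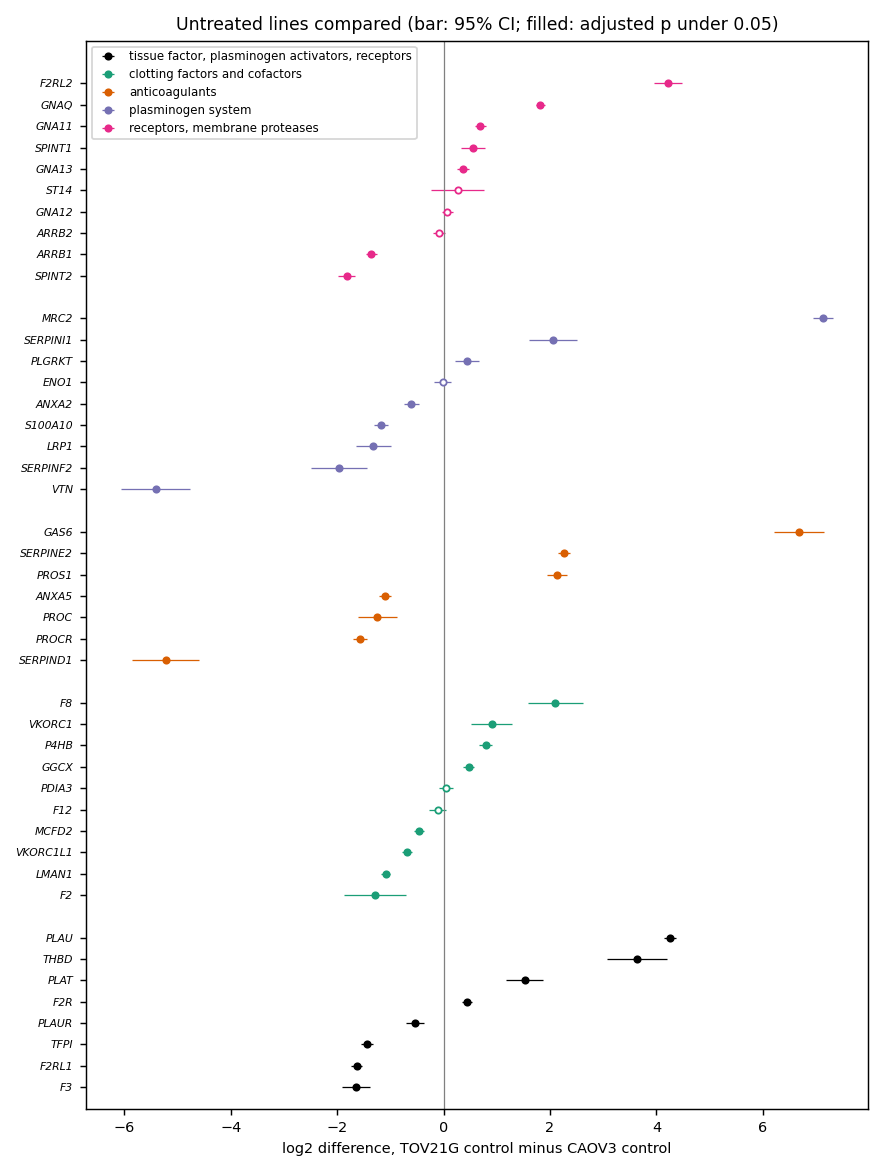
Log2 difference between the untreated lines (horizontal axis, TOV21G control minus CAOV3 control) for the 9 genes and the further lists, with 95% confidence intervals and filled points for an adjusted p under 0.05. The 10 genes with at most 3 reads over the controls of 1 line, TFPI2 and F5 among them, are not drawn. PLAU at 4.26, F2RL2 at 4.22, GAS6 at 6.69 and MRC2 at 7.13 lie far to the right. Genes that passed the filter only through their high line, VTN among them, had to differ.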

How the data were processed

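RNA was sequenced in 12 libraries, 3 for each of 4 groups. Trim Galore, cutadapt, STAR, HTSeq and DESeq are listed, without versions or order, per the submitters' processing notes. The genome build, annotation and strandedness are not given in the sources used here. The authors deposited 1 normalised signal per gene and library, scaled from read counts: in every library 100% of values were whole multiples of 1 step to within 0.01 reads, so reads were recovered.

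The values were tested with limma 3.58.1 in R 4.3.3 (trended variance) on log2(value + 1) for genes with a value of at least 10 in at least 3 libraries. The fit gave each of the 4 groups its own mean and used all 12 libraries, and two-sided p-values were adjusted by the Benjamini-Hochberg method over all genes of a contrast. Fold changes on this scale understate those of low genes. The fit was tested on simulated data, where false calls were above the nominal share and lay mostly among genes low in CAOV3. This was a single run that gave both lines the same spread and changed genes only in CAOV3. It therefore does not show how the fit behaves where the spread differs between the lines. edgeR 4.0.16, DESeq2 1.42.0, TMM scaling, other pseudocounts and filters, a replicate block, fits of 1 line and leaving out libraries were alternatives.

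Named genes are the 9 members, listed genes called in an ascites contrast or in the difference between the lines, up to 8 listed genes with the largest called baseline difference and a mean of at least 50 in the higher line, and the 3 genes most like each member called with ascites. GNGT1 and C10orf55 are named outside this rule because they lie opposite TFPI2 and PLAU. Cell type markers and listed genes that were not analysed are also named. Any other gene named outside the rule is marked. A listed gene and a cell type marker are not reported here. The members and lists were chosen with earlier results of these data known. Positions are from GENCODE release 29 on GRCh38, and promoters from RefSeq (GRCh38.p14), which matched F3, TFPI, TFPI2, PLAU, PLAUR and F2RL1, but not THBD, PLAT and F2R.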

Additional observations from a re-analysis of the deposited data

Results flagged for a closer look

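The difference between the lines in the ascites response, TOV21G minus CAOV3, was tested directly in limma. Of the 45 genes of the wider lists 2 passed, where 0.545% of all genes tested passed. PROS1, protein S, differed by -0.64 (adjusted p = 0.038), with means of 248 and 386 in CAOV3 controls and ascites and of 1091 and 1081 in TOV21G. ARRB1, beta-arrestin 1, differed by 0.37 (adjusted p = 0.0339), with means of 2750.2 and 2258 in CAOV3 and of 1073 and 1137 in TOV21G.

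Neither call stood without each single library, or with the replicate number as a block (adjusted p = 0.119 for PROS1 and 0.305 for ARRB1). Without both TOV21G control replicate 1 and TOV21G ascites replicate 2, the adjusted p was 0.0531 for PROS1. For PROS1 it stood in 3 of 12 such fits (without CAOV3 ascites replicate 2, TOV21G control replicate 2 or TOV21G ascites replicate 2) and the adjusted p reached 0.115 without CAOV3 ascites replicate 1. For ARRB1 it stood in 2 of 12 (without TOV21G control replicate 1 or TOV21G ascites replicate 2) and reached 0.105 without CAOV3 ascites replicate 2.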

How the results depend on the processing

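Each library held at least 26697609 reads over the 19251 genes with values. The baseline differences of the 8 members detected in both lines and the rise of PLAU in CAOV3 were called under every alternative run. In CAOV3, 305 genes were called: 511 by edgeR, 507 by DESeq2, 1295 with CAOV3 alone, 620 without both TOV21G control replicate 1 and TOV21G ascites replicate 2 (an alternative chosen after seeing the data), and 162 to 345 when 1 library was left out. With TMM scaling and limma, 182 of the 17616 genes tested were called higher in CAOV3 and 238 lower, and 2 members were called. With CAOV3 alone 5 members were called. In TOV21G, 72 genes were called: 114 by edgeR, which called 1 member, 150 by DESeq2, 22 with TOV21G alone, where the share of calls that were higher went from 34.7% to 45.5%, and 24 to 137 when 1 library was left out. For the difference in response, 96 genes were called: 151 with TMM scaling, 148 by edgeR, 212 by DESeq2, 188 without both TOV21G libraries, and 35 to 147 when 1 library was left out.

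With the replicate number within each line as a block, the calls numbered 116 for CAOV3, 13 for TOV21G and 9 for the response difference, and 11.1% of these 9 were higher against 43.8% without it. To see whether numbers mark pairs, the deviations of each library from its group mean were correlated over the 11886 genes with a mean of at least 100. Same-numbered control and ascites libraries gave r of -0.0689, 0.0603 and 0.0136 in CAOV3 and -0.165, -0.417 and 0.0726 in TOV21G. Deviations within a group sum to 0, which forces values of both signs among the pairs of a line. Not every library correlated best with its own number, and the numbers were not treated as pairs. Under this block PLAU in CAOV3 had an adjusted p of 0.0301, and the adjusted p was 0.12 for PROC and 0.108 for ARRB1 in CAOV3, and 0.119 and 0.305 for the differences of PROS1 and ARRB1.

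Some small values that were never called changed sign, and the cause was not tested. PROS1 in TOV21G became 0.0141 with TMM scaling, 0.0137 by edgeR and 0.0024 without both TOV21G libraries. Of the differences in response, F3 became 0.0129 with TMM scaling, PROC became -0.00274 with a pseudocount of 0.5 and -0.0837 without both TOV21G libraries, and F2R became -0.00558 without them. With 1 library left out, log2 fold changes ranged from -9.67e-06 to 0.374 for PLAT in CAOV3. In TOV21G they ranged from -0.114 to 0.0704 for PLAUR, -0.0509 to 0.0395 for PROS1, -0.108 to 0.14 for F3 and -0.0331 to 0.0498 for TFPI. The differences in response ranged from -0.026 to 0.0631 for F2R, -0.171 to 0.0765 for F3 and -0.126 to 0.192 for PROC.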
